A study of Rattus norvegicus with 47 samples.

Results

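Of the 47 arrays of a rat brain injury series 7 carried RNA from the ipsilateral hippocampus at 4 h after injury, and they are described here in 2 blocks. The later block held the arrays with extraction numbers 21, 22 and 24 (n = 3) and the earlier block those numbered 17 to 20 (n = 4), as read from the sample titles. This split was chosen from values of these same arrays, so its differences are given as a description with no test. Each array measured total RNA, extracted with Trizol, on 8799 probe sets, of which 7503 are used. Across the series, cortex was sampled at 4 h and 24 h and hippocampus at 4 h only, on the injured side and on the opposite side.

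Every rat tissue in these comparisons shares 4 h of waiting after injury, while no source used here gives their strain, age, sex or the kind of injury. The labels name no sham operation and no treatment that sets the later arrays apart from the earlier ones. Whether either block came from sham-operated rats, and whether each array is a separate animal, is likewise not given, so the spread between arrays may be technical. Number 23 falls inside the later run but is titled contralateral. Its values are shown beside both blocks and enter neither.

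After brain injury, microglia, astrocytes and vessel cells release chemokines and cytokines within hours. Chemokines draw monocytes and other leukocytes from the blood, and interleukin-1 and Toll-like receptor ligands act through the transcription factors NF-kappa B and C/EBP. Astrocytes that respond in this way are known to make protease inhibitors, iron-binding proteins and surface adhesion molecules. In bulk tissue, more cells of a type and more RNA per cell cannot be told apart.

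The tissue label was checked against regional markers. Of 13 hippocampus-enriched genes measured, 8 were higher in all 7 arrays than in every ipsilateral cortical array at 4 h, and none was lower. Of 4 cortex-enriched genes, 2 were lower in all 7. The 7 arrays had median signals of 721 to 793, and Pearson's r across probe sets, which are not independent replicates, was 0.962 to 0.979 between later and earlier arrays, against 0.966 to 0.979 within the later block and 0.974 to 0.982 within the earlier one. The 3-prime to 5-prime signal ratio of the beta-actin control, a measure of RNA integrity, was 1.16 to 1.32 on later arrays and 1.35 to 1.43 on earlier arrays, without overlap. It was 1.13 to 1.36 on contralateral hippocampal arrays 25 to 32. The Gapdh ratio overlapped, at 1.05 to 1.18 on later and 1.09 to 1.19 on earlier arrays. The part of RNA integrity in the differences below was not tested.

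The deposited signal is a brightness on a linear scale. Signals under 185.8, the 25th percentile of all values, were raised to that floor before log2 was taken, so the floor is 7.54 on the log2 scale and a difference from a block at the floor is understated. A probe set was called where the block means differed by at least 1 log2 unit (2-fold) and every later array lay above all earlier arrays, or every one below them, which is called free of overlap here. By this rule 66 of 7503 probe sets were higher on the later arrays (0.88%) and 12 were lower (0.16%). Without the size limit, 352 were higher (4.69%) and 226 lower (3.01%) without overlap. Since values of these arrays chose the split, nothing is read from these shares. The 66 probe sets included 54 that name 1 gene, and these cover 44 genes.

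**Figure D1:**
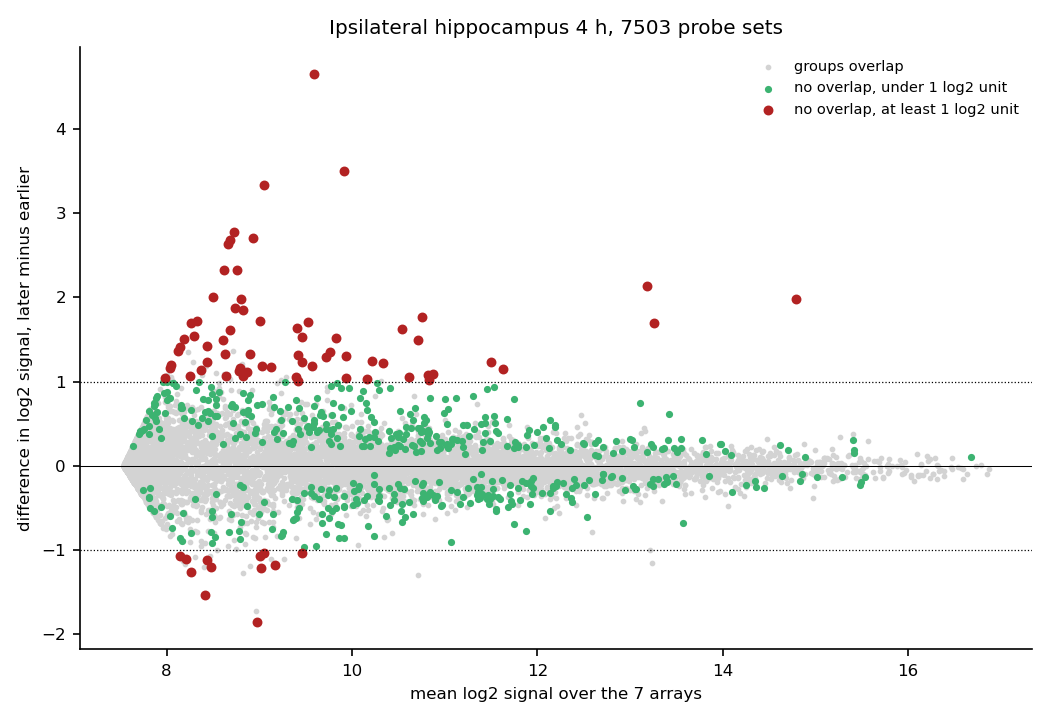
Difference in log2 signal between the later (n = 3) and earlier (n = 4) ipsilateral hippocampal arrays for 7503 probe sets, against mean log2 signal over the 7 arrays; dotted lines mark 1 log2 unit. The 66 higher and 12 lower called probe sets are red, and the largest difference is 4.65, for Ccl2.

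The 5 genes with the largest differences on the later arrays were, in order, the chemokine Ccl2, the inhibitor of matrix proteases Timp1, the transcription factor Cebpd and the chemokines Cxcl10 and Ccl3. Ccl2, which draws monocytes, had signals of 8786, 2002 and 6511 on later arrays 21, 22 and 24, against 124, 52.8, 22.7 and 220 on earlier arrays 17 to 20. The lowest later array was far above the highest earlier one, and 3 of the 4 earlier arrays were under the floor. Its means were 12.25 ± 1.13 log2 signal on later arrays (SD, n = 3) and 7.60 ± 0.12 on earlier arrays (n = 4), a difference of 4.65 (SE 0.65). Another probe set of Ccl2 had signals of 5908, 2128 and 4590 on later arrays, against 389, 478, 273 and 264 on earlier arrays, all above the floor. Its difference was 3.51 (SE 0.49), which is 11.4-fold. Array 22 was the lowest of the later block in both probe sets.

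Cxcl10, an interferon-induced chemokine for T cells, had signals of 1919, 1100 and 1358 on later arrays, against 355, 29.4, 178 and 131 on earlier arrays. Array 17 was the highest of the earlier block and the only one above the floor. The difference was 2.70 (SE 0.33), from means of 10.47 ± 0.41 on later arrays and 7.77 ± 0.47 on earlier arrays. Ccl3, a chemokine for macrophages, had signals of 2189, 658 and 1163 on later arrays, against 36.5, 71.2, 31.3 and 59.1 on earlier arrays. All 4 earlier arrays were under the floor, so Ccl3 was at least 6.39-fold higher on later arrays. Il1b, the cytokine interleukin-1 beta, had signals of 1152, 898 and 694 on later arrays, against 307, 166, 205 and 303 on earlier arrays. The blocks did not overlap, and the difference was 1.88 (SE 0.28).

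Chemokine genes outside the naming rule were looked up after their values were seen. Ccl4, a relative of Ccl3, had signals of 854, 585 and 512 on later arrays and 26.8, 218, 98.3 and 145 on earlier arrays. Cxcl13, which draws B cells, had signals of 889, 590 and 418 on later arrays and 27.8, 21.04, 92.7 and 98.9 on earlier arrays. Neither overlapped between blocks, with differences of 1.71 (SE 0.23) for Ccl4 and 1.70 (SE 0.31) for Cxcl13. In contrast Cx3cl1, the neuronal chemokine that acts on microglia, averaged 15.02 ± 0.25 on later and 15.02 ± 0.16 on earlier arrays.

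**Figure D2:**
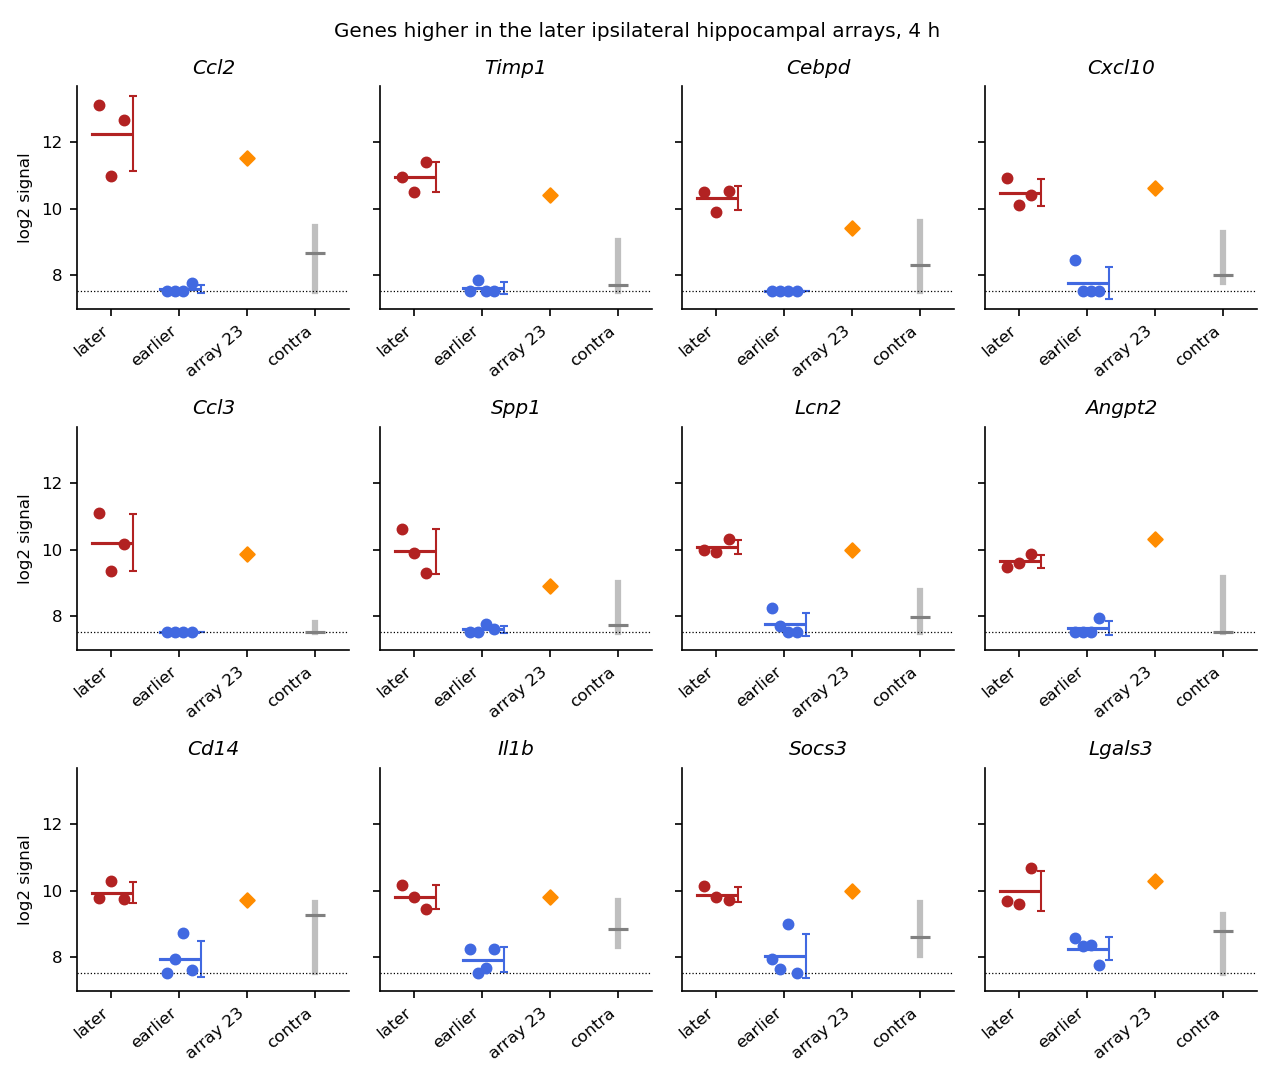
Log2 signal of the 12 genes with the largest positive differences, by array: later arrays 21, 22 and 24 (red), earlier arrays 17 to 20 (blue), array 23 (orange) and the range and median of contralateral arrays 25 to 32 (grey). Horizontal bars are means, error bars are SD and the dotted line is the floor of 7.54; no later array overlaps an earlier one in any panel.

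Among regulators of the cytokine response, Cebpd, Socs3, Nfkbia and Irf1 had probe sets that were higher without overlap, while Stat3 (1.02), Nfkb1 (0.83) and Socs2 (0.12) overlapped between blocks. Cebpd, a C/EBP transcription factor of the acute-phase response, had signals of 1446, 960 and 1484 on later arrays, against 112, 121, 155 and 136 on earlier arrays. Every earlier array was under the floor, so it was at least 6.85-fold higher on later arrays. A brighter Cebpd probe set was above the floor on all 7, with 11.47 ± 0.07 on later and 9.85 ± 0.34 on earlier arrays, a difference of 1.62 (SE 0.17). The remaining Cebpd probe set averaged 9.57 ± 0.41 on later and 9.51 ± 0.22 on earlier arrays and overlapped, so probe sets of this gene disagree. Socs3, an inhibitor of cytokine receptor signalling, had signals of 1135, 890 and 835 on later arrays, against 249, 200, 508 and 126 on earlier arrays. The difference was 1.85 (SE 0.36), and array 19 was the highest of the earlier block. Nfkbia, the inhibitor that holds NF-kappa B in the cytoplasm, averaged 10.94 ± 0.14 on later and 10.02 ± 0.26 on earlier arrays. Irf1, an interferon regulatory factor, averaged 10.40 ± 0.35 on later and 9.41 ± 0.20 on earlier arrays, likewise without overlap.

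Promoters of Cxcl10, Lcn2 and Socs3 are shown because these genes were among the leading 12 and their windows hold the NF-kappa B (kappa B) consensus, which was searched for by its 10-base degenerate form on both strands. Sequences are from RefSeq (GRCr8), which is not the arrays' annotation, and run 5′ to 3′ on the gene's strand, with the match in capitals.
Cxcl10, chr14:15988854-15988913, plus strand: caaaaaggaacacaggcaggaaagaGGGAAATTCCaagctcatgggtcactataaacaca
Lcn2, chr3:36081988-36082030, minus strand: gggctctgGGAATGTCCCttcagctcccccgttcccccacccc
Socs3, chr10:103694895-103694954, minus strand: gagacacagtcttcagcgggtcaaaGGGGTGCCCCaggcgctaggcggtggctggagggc

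In Cxcl10 the match runs from base -187 to -178 relative to the annotated gene start, in Lcn2 from -242 to -233 and in Socs3 from -161 to -152. Promoters of 300 bases were found for 32 of the 44 genes called higher, and 5 of them held a match (15.6%): Cxcl10, Gch1, Lcn2, Pfkfb3 and Socs3. A match was held by 1142 of all 27457 RefSeq promoters (4.16%) and by 176 of the 3480 promoters of tested genes (5.06%). None of the 9 promoters found for genes called lower held one. A match is a description of the sequence and not a site of binding.

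Of the microglial and macrophage genes, Spp1, Lgals3, Cd14 and C3 had the largest differences. Spp1, the secreted phosphoprotein osteopontin, had signals of 1580, 961 and 632 on later arrays, against 142, 121, 218 and 196 on earlier arrays. Lgals3, the lectin galectin-3, had signals of 826, 773 and 1638 on later arrays, against 386, 325, 328 and 217 on earlier arrays. Cd14, a co-receptor for bacterial lipopolysaccharide, had signals of 872, 1262 and 852 on later arrays, against 72.0, 246, 424 and 198 on earlier arrays. None of these overlapped between blocks, and different arrays of the later block were highest: 21 for Spp1, 24 for Lgals3 and 22 for Cd14. The differences were 2.33 (SE 0.39) for Spp1, 1.72 (SE 0.39) for Lgals3 and 1.98 (SE 0.33) for Cd14. A brighter Cd14 probe set was also free of overlap, with a smaller difference of 1.31 (SE 0.16). Complement C3 had signals of 553, 422 and 517 on later arrays, against 47.8, 23.5, 34.1 and 43.4 on earlier arrays, so it was at least 2.66-fold higher against the floor. Of 2 C3 probe sets, 1 was higher without overlap.

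Over the fixed list of microglial and macrophage genes, 6 of 17 measured genes were higher without overlap (C1qb, C3, Fcgr2b, Lgals3, Spp1 and Cd14), none was lower, and 16 had a positive difference. The median difference was 0.31, where the median over all tested probe sets was 0. Over all tested probe sets, 4.69% were higher and 3.01% lower without overlap. Of the 11 members that overlapped, 3 were picked after their values were seen. Cx3cr1, the fractalkine receptor, averaged 9.68 ± 0.35 on later and 9.62 ± 0.35 on earlier arrays. Aif1, the calcium-binding protein IBA1, averaged 10 ± 0.30 on later and 9.82 ± 0.24 on earlier arrays. Ptprc, the leukocyte antigen CD45, averaged 9.03 ± 0.56 on later and 9.24 ± 0.36 on earlier arrays. Summed over the 17 genes, the signal was 46236 to 56130 on later arrays and 38553 to 41589 on earlier arrays, with no gene at the floor on all 7.

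Markers of blood leukocytes overlapped in sum, at 2814 to 4000 on later and 2480 to 3850 on earlier arrays. Of 8 measured, S100a9, a calcium-binding protein abundant in neutrophils, was higher without overlap, with signals of 323, 228 and 415 on later arrays, against 54.7, 167, 108 and 24.0 on earlier arrays. Cd8a, a T-cell antigen, was at the floor on all 7 arrays. Erythroid and plasma protein genes, which mark blood in the tissue, summed to 62298 to 91405 on later and 55444 to 68142 on earlier arrays, with 0 of 9 free of overlap. The share free of overlap over all tested probe sets was 7.7%, so neither list's count is read. The part of blood cells in the differences was not tested.

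Of 15 reactive astrocyte genes measured, 9 were higher without overlap and none was lower, with a median difference of 0.43. Beside this and the next count, 4.69% of all tested probe sets were higher and 3.01% lower without overlap. In the matrix and protease list, 5 of 22 were higher without overlap and none was lower, with 12 positive and 10 negative differences and a median of 0.07 that turned to -0.015 without array 22. Timp1, in both lists, had signals of 1985, 1456 and 2706 on later arrays, against 68.0, 235, 52.6 and 38.3 on earlier arrays, in the probe set with the larger difference (3.33, SE 0.27). Its brighter probe set had signals of 2828, 2987 and 4926 on later arrays, against 1830, 1289, 1088 and 425 on earlier arrays, a difference of 1.76 (SE 0.52). Both were free of overlap, and array 24 was the highest in each. Lcn2, the iron-siderophore-binding protein lipocalin-2, had signals of 1027, 979 and 1275 on later arrays, against 305, 209, 111 and 53.1 on earlier arrays, a difference of 2.33 (SE 0.21). The later arrays lay close together, and 2 of the earlier arrays were under the floor. Cd44, the hyaluronan receptor, had signals of 1956, 1372 and 1710 on later arrays, against 927, 423, 376 and 766 on earlier arrays, a difference of 1.52 (SE 0.35).

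Among the others of the 9 reactive astrocyte genes free of overlap were Serpina3n, a serine protease inhibitor (1.19, SE 0.33), Cp, the copper-binding ferroxidase ceruloplasmin (1.11, SE 0.16), and S100a10, the annexin A2 partner (1.08, SE 0.36). Vim and Aqp4, picked after their values were seen, overlapped between blocks. Vim, the filament protein vimentin, averaged 12.20 ± 0.45 on later and 11.91 ± 0.12 on earlier arrays. Aqp4, the water channel of astrocyte endfeet, averaged 12.52 ± 0.21 on later and 12.53 ± 0.21 on earlier arrays. Of 11 homeostatic astrocyte genes 1 was higher without overlap, where the share over all tested probe sets was 4.69%. This was Glul, which makes glutamine from glutamate (0.31, SE 0.09), in 1 of its 4 probe sets. Slc1a2, a glutamate transporter, entered the list by a probe set that overlapped. Another Slc1a2 probe set was called higher by 1.30 (SE 0.49), so probe sets of this gene disagree. The list's median difference was 0.04.

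The 5 matrix and protease genes were Timp1, Timp3, Plau, Plaur and Fn1. Plau, the urokinase protease, had signals of 323, 341 and 495 on later arrays, against 207, 172, 47.3 and 179 on earlier arrays. Plaur, its receptor, had signals of 504, 226 and 260 on later arrays, against 96.6, 153, 165 and 196 on earlier arrays. For each, 3 of 4 earlier arrays were under the floor, and without array 21 the difference of Plaur was 0.362, against 0.715 with it. Mmp9, a gelatinase, averaged 8.73 ± 0.49 on later and 8.42 ± 0.12 on earlier arrays and overlapped.

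Of 33 cytokine and inflammatory signalling genes measured, 15 were higher without overlap and none was lower, beside 4.69% and 3.01% of all probe sets. The median difference was 0.79, with 30 positive and 1 negative, that of Cx3cl1. As the mean over the list, relative to the mean of contralateral hippocampal arrays 25 to 32, the later arrays stood at 0.64, 0.29 and 0.57 log2 units and the earlier arrays at -0.25, -0.57, -0.47 and -0.38. The contralateral arrays ran from -0.14 to 0.26, so the later arrays lay above and the earlier ones below all 8 of them. For the reactive astrocyte list, the later arrays stood at 0.43, 0.41 and 0.57, against -0.13, -0.36, -0.29 and -0.26 on the earlier arrays. For the microglial list the later arrays stood at 0.48, 0.36 and 0.50, against -0.12, -0.14, -0.19 and -0.23 on the earlier arrays. These lists share members, among them Cd14 and Timp1. Array means were also apart, by less, for the matrix, immediate early, cholesterol synthesis and apoptosis lists, which made 7 of 27 lists in all.

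**Figure D3:**
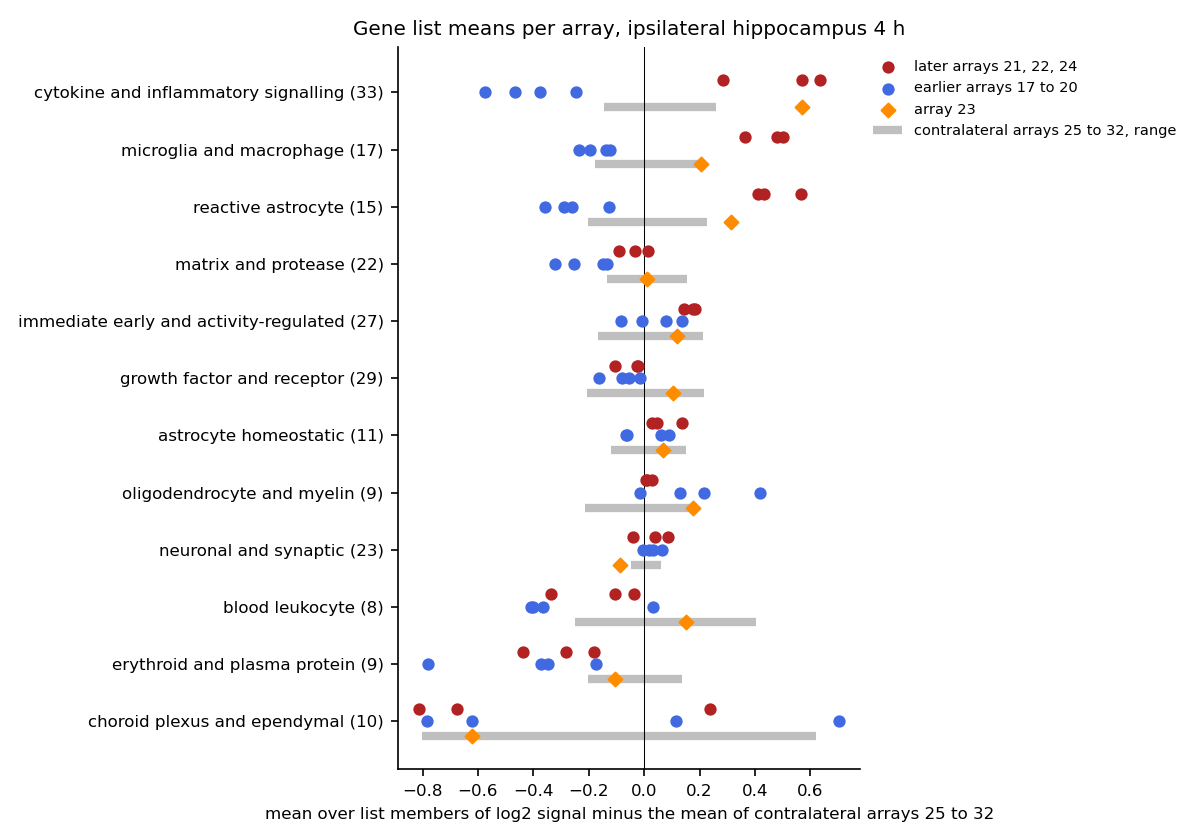
Mean over the members of 12 gene lists (number measured in parentheses) of log2 signal minus the mean of contralateral arrays 25 to 32, for later arrays (red), earlier arrays (blue), array 23 (orange) and the range of arrays 25 to 32 (grey). Later and earlier arrays are apart for the cytokine, microglial, reactive astrocyte, matrix and immediate early lists, by little in the last, and they overlap for the growth factor, homeostatic astrocyte, oligodendrocyte, neuronal, leukocyte, erythroid and choroid plexus lists.

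Vessel genes were found on both sides. Angpt2, the angiopoietin that loosens endothelial junctions, had signals of 715, 774 and 935 on later arrays, against 69.6, 157, 182 and 249 on earlier arrays, a difference of 2.01 (SE 0.16). Icam1, the adhesion molecule for leukocytes, had signals of 1523, 1325 and 1637 on later arrays, against 1229, 469, 391 and 515 on earlier arrays, and array 17 came close to the later block. Edn1, the vasoconstrictor endothelin-1, was higher by 0.80 (SE 0.29). Both transporters of the blood-brain barrier that were free of overlap were lower. Slco1a4, which carries organic anions, had signals of 1402, 1681 and 1430 on later arrays, against 2473, 3040, 2503 and 3340 on earlier arrays, a difference of -0.91 (SE 0.14). Abcb1a, the efflux pump P-glycoprotein, had signals of 291, 117 and 208 on later arrays, against 461, 361, 313 and 444 on earlier arrays, a difference of -0.80 (SE 0.23). Of 11 endothelial genes in the list, 2 were higher and 2 lower without overlap, so the list had no shared direction. The shares over all tested probe sets were 4.69% higher and 3.01% lower.

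Of 27 activity-regulated genes measured, 3 were higher and 4 lower without overlap, beside 4.69% and 3.01% of all probe sets. Fos, the AP-1 subunit, had signals of 4141, 3622 and 4360 on later arrays, against 2275, 1742, 2431 and 2182 on earlier arrays, a difference of 0.91 (SE 0.13), and all 3 of its probe sets were free of overlap. Its dimmer probe sets were called higher, by 1.06 (SE 0.17) and 1.01 (SE 0.19). In ipsilateral cortex at 4 h these differed by -0.58 and -0.34 and the brightest Fos probe set by 0.11, and none passed limma. Ptgs2, the inducible cyclooxygenase of prostaglandin synthesis, had signals of 1895, 1121 and 1851 on later arrays, against 998, 834, 775 and 819 on earlier arrays, a difference of 0.89 (SE 0.26). Atf3, a stress-induced factor, was higher by 0.73 (SE 0.18). The 4 lower were the orphan receptors Nr4a1 (-0.69, SE 0.14) and Nr4a3 (-0.53), the phosphatase Dusp6 (-0.32) and the neurotrophin Bdnf (-0.22). Egr1, the zinc-finger factor, averaged 13.84 ± 0.23 on later and 14.17 ± 0.15 on earlier arrays in its brightest probe set and overlapped there. The list's median difference was 0.14.

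Among 29 growth factor genes, 5 were higher without overlap (Fgf2, Tgfb1, Tgfb3, Hbegf and Egfr) and 4 lower (Bdnf, Ntf3, Fgfr2 and Pdgfrb). The shares over all probe sets were 4.69% higher and 3.01% lower. Hbegf, a ligand of the EGF receptor, had signals of 758, 609 and 714 on later arrays, against 194, 391, 474 and 325 on earlier arrays, a difference of 1.07 (SE 0.29) that was 0.818 without array 17. Of 2 Hbegf probe sets, 1 was higher without overlap. Tgfb1, an anti-inflammatory cytokine, had signals of 1043, 738 and 1008 on later arrays, against 619, 343, 372 and 568 on earlier arrays, a difference of 1.0 (SE 0.27). In the heat shock list 1 of 14 genes was free of overlap, near the 7.7% of all probe sets, so this count is not read. The gene was Hmox1, the haem-degrading enzyme. It had signals of 2289, 2724 and 3221 on later arrays, against 1412, 1212, 1562 and 1216 on earlier arrays, a difference of 1.02 that missed 1 log2 unit without array 24 (0.895), 18 (0.969) or 20 (0.97). Hspb1, the small heat shock protein, entered the list by a probe set that averaged 11.03 ± 0.04 on later and 11.05 ± 0.55 on earlier arrays, while its other 3 probe sets were called higher by 1.5 to 1.64, so probe sets of this gene disagree.

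In the neuronal lists the counts free of overlap lay near the share over all tested probe sets, 578 of 7503 (7.7%), so nothing is read from them. Of 23 neuronal and synaptic genes, Dlg4, the scaffold protein PSD-95, was the only member free of overlap (0.26, SE 0.06), and the list's median difference was 0.00. In the glutamate list 1 of 22 genes, the kainate receptor subunit Grik1, was lower (-0.57, SE 0.28, and -0.305 without array 24). In the GABA list of 17, the receptor subunit Gabrg1 was higher (0.22, and 0.142 without array 21) and Gabra5 lower (-0.26). Among 32 voltage-gated ion channels, Kcna4, a potassium channel of axons, was higher (0.35, SE 0.14, and 0.21 without array 18), and the sodium channels Scn3a (-0.54, SE 0.17) and Scn2a (-0.23, SE 0.06) were lower. For Gabra5 and Kcna4, 1 of 2 probe sets of the gene was free of overlap in the direction given. All 9 oligodendrocyte genes had negative differences, with a median of -0.15, and all 9 overlapped. Choroid plexus genes, which mark how much plexus a dissection holds, spread widely within both blocks. Their list mean was -0.68, -0.81 and 0.24 on later arrays, against 0.70, 0.12, -0.78 and -0.62 on earlier arrays.

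The counts of the remaining lists are likewise given beside the 7.7% of all probe sets. Of 15 antioxidant genes, Gclc, of glutathione synthesis, was higher (0.29), and Cat, the catalase that breaks down hydrogen peroxide (-0.54, and -0.355 without array 22), and Gsta4 (-0.31) were lower. The lactate carrier Slc16a1 (-0.33, 1 of 17 glycolysis and hypoxia genes) and the glucocorticoid receptor Nr3c1 (-0.28, and -0.176 without array 22, 1 of 6 corticosteroid genes) were lower. Fdps, of cholesterol synthesis, was higher (0.30, 1 of 11 genes). In the direction given, 1 of 3 probe sets was free of overlap for Cat and for Fdps. For Gsta4, Slc16a1 and Nr3c1 it was 1 of 2. None of the 12 neuropeptide, 9 apoptosis, 16 cell cycle and 14 oxidative phosphorylation genes was free of overlap.

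Of the 12 probe sets called lower, 10 had at least 1 later array at the floor and 3 had all of them there. Nthl1, a glycosylase of base excision repair, had signals of 198, 203 and 350 on later arrays, against 585, 1043, 905 and 1043 on earlier arrays, a difference of -1.85 (SE 0.33). Hes5, a repressor induced by Notch, had signals of 120, 147 and 83.2 on later arrays, against 932, 1301, 238 and 285 on earlier arrays. All 3 later arrays were under the floor and the earlier ones fell into a bright pair, 17 and 18, and a dim pair, 19 and 20. A brighter Hes5 probe set averaged 10.15 ± 0.24 on later and 10.83 ± 0.31 on earlier arrays, also without overlap. Tkfc, a kinase of fructose metabolism, had signals of 146, 149 and 82.1 on later arrays, against 408, 382, 608 and 416 on earlier arrays. Pdgfrb, the PDGF receptor of pericytes, had signals of 132, 135 and 132 on later arrays, against 299, 309, 668 and 372 on earlier arrays. Tkfc and Pdgfrb were under the floor on every later array, and Pdgfrb fell short of the 2-fold limit without array 19 (-0.808).

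The other 7 lower genes differed by -1.03 to -1.21. They were Gng8, a G-protein subunit (-1.21), Neo1, the receptor neogenin (-1.20), Pnck, a calmodulin-dependent kinase (-1.17), Cenatac (-1.11), Tdp1, which repairs topoisomerase adducts (-1.07), the initiator caspase Casp2 (-1.04), and Pacs1, a sorting adaptor (-1.03). In Gng8, Pnck, Tdp1 and Pacs1 array 21 was at the floor and the lowest of the later block. Array 24 came close to the earlier arrays: Tdp1 had 586 on array 24, against 596 on array 19, and Pacs1 had 576 on array 24, against 578 on array 19. For Casp2, Pnck and Pacs1 1 of 3 probe sets of the gene made the call, and for Gng8 1 of 2. Without array 21 the differences were -0.571 for Pacs1, -0.635 for Tdp1, -0.694 for Pnck, -0.823 for Gng8 and -0.97 for Casp2, all short of the 2-fold limit. Casp2 was at -0.712 without array 22, and Cenatac at -0.985 without array 22 and -0.912 without array 18. Leaving out an earlier array also took Tdp1 (-0.972 without 18), Casp2 (-0.984 without 18) and Pacs1 (-0.902 without 17, -0.983 without 20) short of it.

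**Figure D4:**
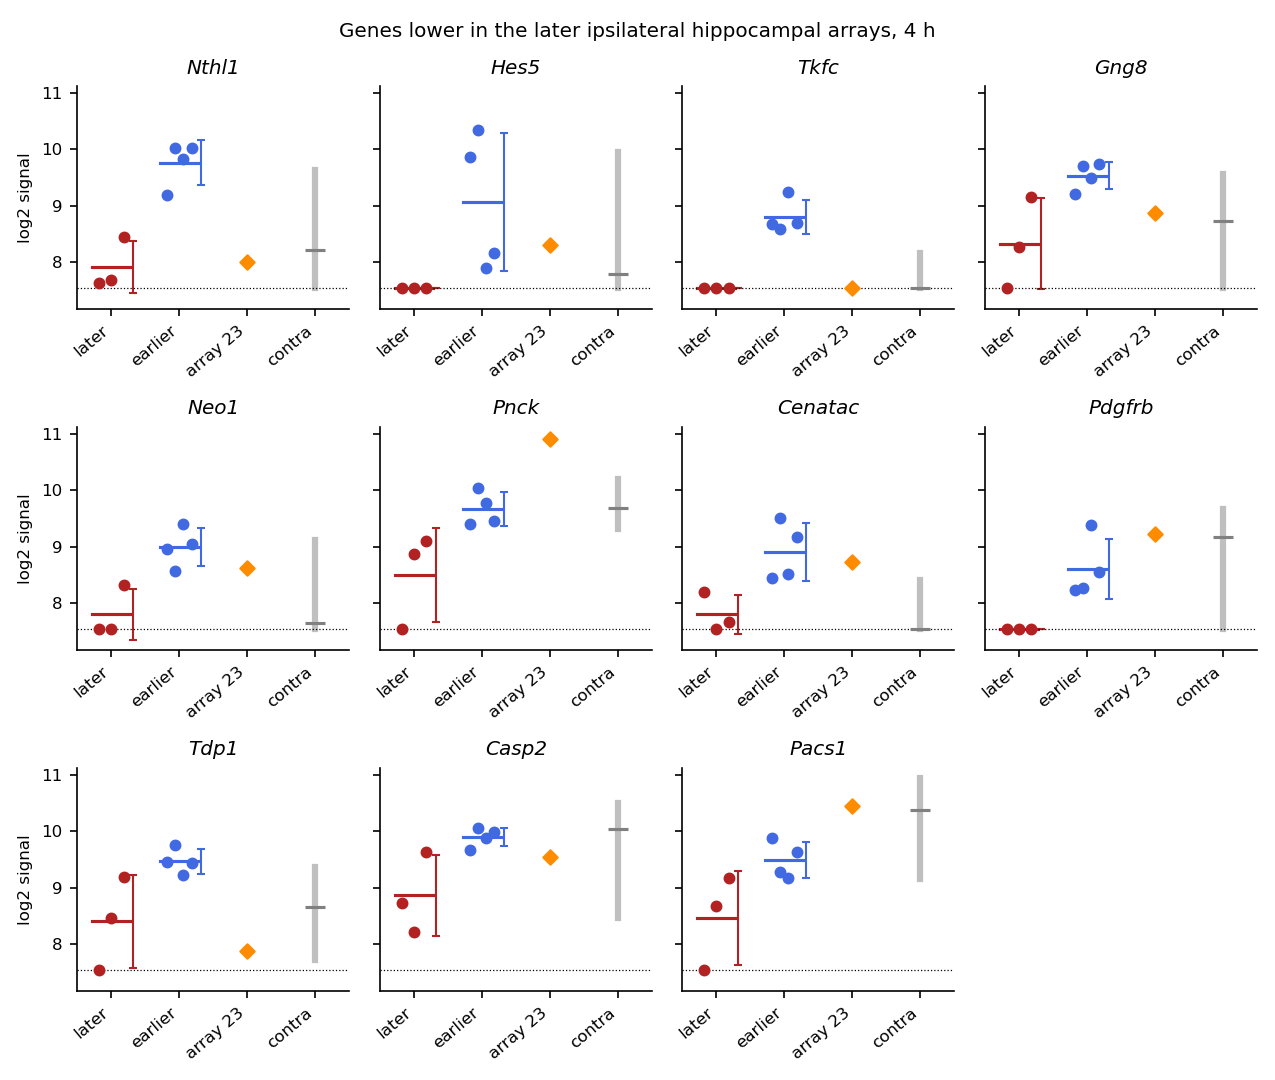
Log2 signal of the 11 genes called lower, by array: later arrays 21, 22 and 24 (red), earlier arrays 17 to 20 (blue), array 23 (orange) and the range and median of contralateral arrays 25 to 32 (grey). Horizontal bars are means, error bars are SD and the dotted line is the floor of 7.54; Hes5, Tkfc and Pdgfrb are at the floor on all 3 later arrays.

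Array 23 was set beside both blocks. Its signal for Ccl2 was 2959, for Cxcl10 1560, for Ccl3 932, for Lcn2 1019 and for Timp1 1369, each above every earlier array and above all 8 contralateral arrays 25 to 32. Those contralateral arrays ran from 64.2 to 696 for Ccl2, from 224 to 614 for Cxcl10, from 26.6 to 222 for Ccl3, from 69.5 to 434 for Lcn2 and from 43.7 to 525 for Timp1. These values are from the probe set with the larger difference. In the brighter Timp1 probe set array 23 had 3257, under the highest of arrays 25 to 32 (3386). Across the 66 probe sets called higher, array 23 was above every earlier array in 58, and over all 7503 in 2848. The 66 were called for low earlier arrays, which raises the first count by construction, so nothing is read from it. Array 23 was above every one of arrays 25 to 32 in 36 of the 66, and in 1450 of all 7503. For Spp1 (477) and the Cebpd probe set with the larger difference (680) array 23 stood between the blocks. In the brighter Cebpd probe set it had 3259.5, above the later arrays (2738, 2771 and 3000). For Cd44 (875) it lay among the earlier arrays, and for Kcna4 (398) it was under both blocks. For the 12 probe sets called lower array 23 was below every earlier array in 5 and above every one in 2. Over all 7503 it was below in 1867. The 12 were called for high earlier arrays, so these counts are likewise not read. Array 23 correlated with the later arrays at r = 0.944 to 0.959, with the earlier arrays at 0.941 to 0.947 and with arrays 25 to 32 at 0.949 to 0.955. Its 10th percentile of signal was 98.9, against 41.2 to 56.7 on later and 36.4 to 48 on earlier arrays.

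The later block itself was uneven. In the 66 probe sets called higher, array 24 was the highest of the later arrays in 31, array 21 in 22 and array 22 in 13, and array 22 was the lowest in 29. All 3 later arrays exceeded every one of arrays 25 to 32 in 37 of the 66, as they did in 218 of all 7503. In 31 of the 66 the 4 earlier arrays all lay inside the range of arrays 25 to 32, as they did in 3138 of all 7503. The 66 were called for high later and low earlier arrays. Neither count is therefore comparable with that over all 7503, and nothing is read from either.

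The same genes were then looked up in tissue that the split had not used. In ipsilateral cortex at 4 h, arrays 5 to 8 (n = 4) were compared with arrays 1, 3 and 4 (n = 3) in a limma model of all 31 arrays at 4 h, adjusted over 7503 probe sets. That split by number was likewise proposed with results of these data in view, and whether cortex and hippocampus came from the same animals is not given. In the probe set at the floor on every earlier cortical array, Cebpd rose by 2.75 log2 units (limma adjusted p = 1.19e-07). Its signals were 1178, 1240, 1094 and 1509 on later cortical arrays, against 121, 143 and 138 on earlier ones. The brighter Cebpd probe set rose by 1.54 (limma adjusted p = 0.00304). Ccl2 had signals of 2814, 1277, 3113 and 2674 on later cortical arrays, against 133, 668 and 570 on earlier ones, and rose by 2.50 (SE 0.43, limma adjusted p = 0.00202). These probe sets of both genes were free of overlap in cortex as in hippocampus.

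Ccl3 had signals of 1818, 518, 805 and 1479 on later cortical arrays, against 17.4, 69.4 and 122 on earlier ones, and rose by 2.47 (limma adjusted p = 6.71e-05). Timp1 rose by 2.59 (limma adjusted p = 0.000147), Lcn2 by 2.0 (0.000322), Cxcl10 by 1.76 (0.0351) and Hmox1 by 1.53 (0.00035). For Timp1 and Hmox1 this held in 1 of 2 probe sets. The brighter Timp1 probe set differed by 0.85 and did not pass (limma adjusted p = 0.451). The dimmer Hmox1 probe set differed by 1.52 and did not pass either (0.0774). Il1b rose by 1.39 in its dimmer probe set (limma adjusted p = 0.00283), while its brighter one differed by 1.42 and did not pass (0.0848). Spp1 (1.34, limma adjusted p = 0.0848), Cd14 (1.65, 0.0613) and Lgals3 (1.56, 0.0518) did not pass. The brighter Cd14 probe set differed by 0.45 and did not pass either (limma adjusted p = 0.823). Angpt2 differed by 0.45 and Socs3 by 0.81, both with wide spread in cortex, and did not pass (limma adjusted p = 0.869 and 0.774).

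Of the 66 probe sets called higher in hippocampus, 13 rose in ipsilateral cortex and none fell, where 22 of all 7503 rose (0.293%) and 7 fell (0.0933%). A positive cortical difference was found in 58 of the 66, with a median of 0.83, and in 3668 of all 7503, with a median of 0.00. Of the 12 called lower in hippocampus none passed in cortex in either direction, and 2 had positive differences there. Hes5 fell in cortex in its brighter probe set (-1.23 log2 units, limma adjusted p = 0.0484). Egr1 fell in cortex in all 3 probe sets, with differences of -0.67 to -0.88, and its differences in hippocampus were -0.20 to -0.35. Dusp6 fell in cortex as well (-0.78, limma adjusted p = 0.0351). With only the 7 cortical arrays in the fit, 1 probe set rose and 1 fell. Several earlier cortical values sit at the floor, where the spread is 0 by construction, so these p-values rest on the spread borrowed from other groups. Those groups include the ipsilateral hippocampal arrays that gave the 66, and calls free of overlap can favour a low spread there. The 13 of 66 beside 22 of 7503 is therefore not an independent comparison.

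**Figure D5:**
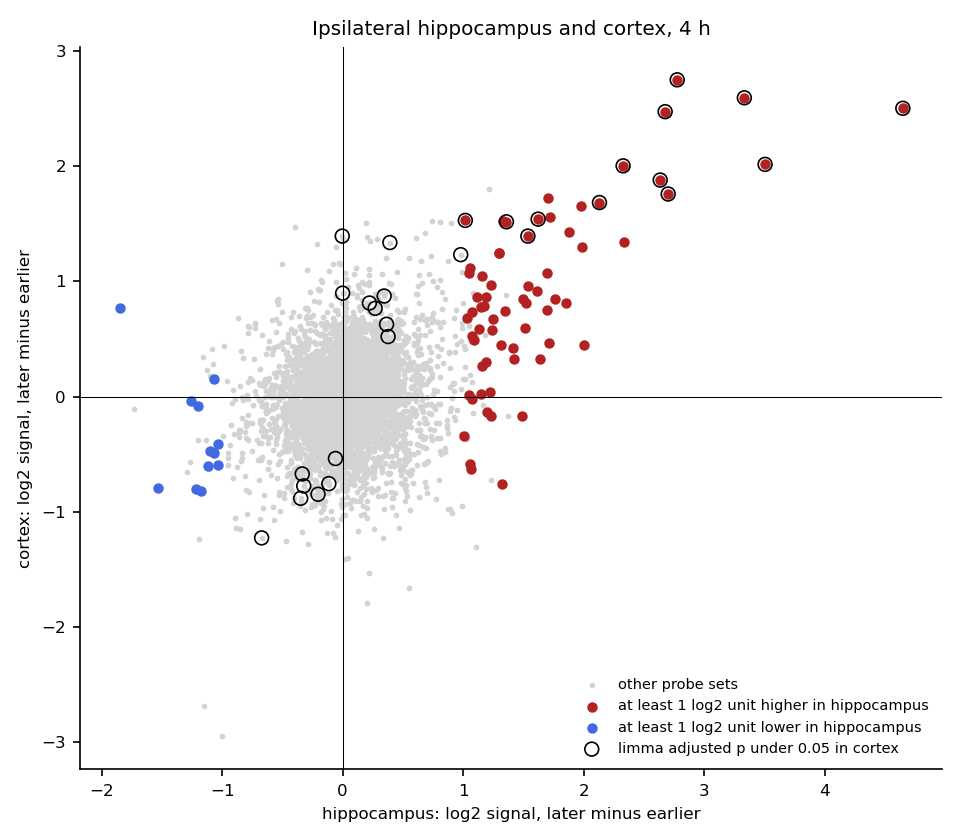
Later minus earlier difference in log2 signal in ipsilateral hippocampus (horizontal) and ipsilateral cortex (vertical) at 4 h for 7503 probe sets; red and blue points were called higher and lower in hippocampus, and open circles passed limma in cortex. Of the 66 red points 58 lie above 0 in cortex and 13 are circled; none of the 12 blue points is circled.

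On the contralateral side fewer probe sets passed than in ipsilateral cortex. In contralateral hippocampus, arrays 29 to 32 against arrays 25 to 28 (n = 4 each), 2 probe sets rose (0.0267%) and none fell in limma, with 263 of 7503 under an unadjusted p of 0.05. Both had been called higher in ipsilateral hippocampus, and the one that names a single gene was a Cebpd probe set. It rose by 1.62 log2 units (limma adjusted p = 0.00127), from means of 9.21 on later and 7.59 on earlier contralateral arrays. Of the earlier ones 3 were at the floor, and the brighter Cebpd probe set differed by 0.78 and did not pass. Ccl2 averaged 9.20 on later and 8.07 on earlier contralateral hippocampal arrays and did not pass (limma adjusted p = 1). In contralateral cortex, 2 probe sets rose (0.0267%) and 2 fell (0.0267%), and both that rose were among the 66. Those that fell were Nr4a3 (-1.04) and Egr1 (-0.75), each at limma adjusted p = 0.0221. Nr4a3 had signals without overlap in ipsilateral hippocampus as well, with means of 11.25 ± 0.11 on later and 11.78 ± 0.20 on earlier arrays. The median difference of the 66 was 0.27 in contralateral hippocampus and 0.25 in contralateral cortex. The limma model of both contralateral contrasts also held the ipsilateral hippocampal arrays, so passing probe sets among the 66 are not independent of those calls. Whether the later minus earlier difference itself differed between tissues or sides was not tested.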

How the data were processed

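Per probe set, the authors deposited a linear intensity, called signal here; how it was summarised and scaled is not stated in any source used here. The 2%-trimmed means of all arrays were 2503 to 2504, so the scaling was kept. The lowest signal was 0.313 and the highest 206640. Log2 was taken after raising to 185.8, the 25th percentile, all signals below it, and probe sets above it on at least 7 of 47 arrays were kept without 59 controls, which left 7503. No detection calls were used. Gene symbols came from the platform annotation, updated by gene ID: 7018 probe sets name 1 gene, 308 several and 1473 none. No file column of per-sample values was left unused.

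Groups were read from the titles and descriptions. The members, gene lists (27, a gene counted by its brightest probe set on average) and comparisons were chosen with earlier results of these data known. The hippocampal split has no test. Cortical and contralateral splits were tested in 1 limma model of 9 group means over 31 arrays, with intensity-trended moderated variances, two-sided, adjusted by Benjamini-Hochberg over 7503 at 0.05 (R 4.3.3, limma 3.58.1, Python 3.11.15). The model was also run on simulated data. Those had the same spread in every group and no floor, so they do not cover groups at the floor. The limma p-values measure the spread between arrays, which may be technical. Named genes were the 12 largest differences each way among called probe sets of 1 gene, 1 per gene (11 were available below), and up to 3 members free of overlap per list; other genes were named after their values were seen. Alternatives were another floor, a pseudocount of 100, quantile normalization, other filters, a 1.5-fold limit, other samples in the fit and leaving out each array. The number of arrays limits the precision.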

Additional observations from a re-analysis of the deposited data

Results flagged for a closer look

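Among the 4 earlier hippocampal arrays, 86 values were checked for an array far from the other 3, by the gap to its neighbour over the whole range, and 9 passed Dixon's critical value at 95%; chance alone marks about 1 in 20. For Ccl2, Timp1, Cxcl10, Angpt2, Plau and Plaur the ratio was 1.0, because the other 3 arrays were at the floor. The mean of the corticosteroid list (0.843) had array 17 apart below the others, and the means of the oxidative phosphorylation list (0.877) and the blood leukocyte list (0.901) had array 17 apart above them.

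In 1 of its 2 probe sets Kcna4 was higher on the later arrays in hippocampus, with signals of 1359, 1464 and 1336 on later and 1142, 822, 1253 and 1198 on earlier arrays. In ipsilateral cortex it was lower, with signals of 202, 581, 267 and 604 on later and 676, 836 and 688 on earlier arrays, a difference of -0.98 (limma adjusted p = 0.49). The difference between the tissues was not tested.

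Array 23, titled contralateral, exceeded every contralateral hippocampal array 25 to 32 in 36 of the 66 probe sets called higher on the later arrays. Over all 7503 it did so in 1450.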

How the results depend on the processing

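All 53 probe sets of the 51 genes named by rule had been picked as free of overlap. Every alternative run in hippocampus except quantile normalization keeps the order of arrays within a probe set. Under those, direction and lack of overlap were kept by construction, so nothing is read from them. Under quantile normalization, which could change both, all 53 kept their direction and 51 stayed free of overlap. With the floor at the 10th percentile, 119 probe sets were called higher and 39 lower in ipsilateral hippocampus, and with a 1.5-fold limit 157 and 51. Leaving out 1 array at a time gave 68 to 91 higher and 14 to 28 lower, and without the size limit 454 to 763 and 345 to 590; fewer arrays make overlap less likely by construction. Of 11 genes called lower 7, and of the named genes called higher Hmox1 and Hbegf, missed the 2-fold limit with some 1 array left out. The median difference changed sign with some 1 array left out in 14 of 27 lists. That count leaves out the voltage-gated ion channel list, whose median of -0.0003 ranged from -0.05 to 0.035. Without array 22, or without array 24, 19 of the 27 kept their sign. The range was -0.128 to 0.009 for the antioxidant list (positive without array 22), -0.137 to 0.004 for oxidative phosphorylation (positive without array 24), -0.015 to 0.132 for matrix and protease, -0.091 to 0.2 for endothelial (negative without array 18) and -0.138 to 0.019 for growth factor genes. It stayed positive for the cytokine (0.586 to 0.975), microglial (0.237 to 0.455) and reactive astrocyte (0.348 to 0.552) lists. In ipsilateral cortex, 14 probe sets rose with the floor at the 10th percentile, 39 rose and 11 fell with all 47 arrays in the limma fit, and 1 rose and 1 fell with the compared arrays alone. Leaving out 1 array gave 11 to 32 rises (11 without array 1, 13 without array 8) and 2 to 14 falls (2 without array 1, 14 without array 3, 4 without array 4, 3 without array 8). In contralateral hippocampus 1 rose with the floor at the 10th percentile or no filter and 0 with the compared arrays alone, and leaving out 1 array gave 1 to 2 rises and 0 to 1 falls. In contralateral cortex, quantile normalization gave 1 rise and 0 falls, no filter 0 and 0, all 47 arrays 4 and 5 and the compared arrays alone 0 and 0 (limma, 285 under an unadjusted p of 0.05). Leaving out 1 array there gave 0 to 3 rises and 0 to 2 falls. No paired analysis was possible because each extraction number occurs once in the series. The cause of these changes was not tested. Signals under the floor have no order, which limits the dim genes, among them most of those called lower. Of the 66 probe sets called higher, 33 had at least 1 earlier array at the floor and 10 had all of them there.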
